A study of Mus musculus with 12 samples.

Results

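The genes described are the TFEB family of transcription factors (Tfeb, Tfe3 and Mitf), folliculin and its partners (Flcn, Fnip1 and Fnip2) and the Rag GTPases (Rraga, Rragb, Rragc and Rragd). They were chosen by gene symbol and not by a cut on their values, though earlier results of these data were known. The 10 members are 10 of the 24062 gene rows of the count table. All 10 were among the 12154 genes that passed the filter on low counts. RNA-seq was carried out on mouse embryonic fibroblasts (MEFs) expressing a short hairpin RNA against Renilla luciferase (shRenilla, the control) or hairpin shBruce#1 against Birc6, the gene of the ubiquitin ligase BRUCE (shBruce). Cells of both lines were harvested from full medium (FM) or after 2 h in medium with neither serum nor amino acids (Starv). Each of the 4 conditions had 3 replicate libraries, 12 in all. Both lines carry a hairpin, and each hairpin is represented by 1 line, so other differences between the lines cannot be told apart from the knockdown. The sources do not say whether replicates came from separate cultures, and p-values then measure only the spread between these libraries, which may be technical.

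The TFEB family are basic helix-loop-helix leucine zipper factors that bind E-box sequences in promoters of lysosomal and autophagy genes, and their activity is set mainly by where the protein sits in the cell. In fed cells, Rag GTPases on the lysosome, each a pair of RagA or RagB with RagC or RagD, recruit both mTORC1 and the TFEB family, and the factors are phosphorylated and held in the cytosol. Folliculin, bound to FNIP1 or FNIP2, is the GTPase-activating protein for RagC and RagD and is needed for this recruitment of TFEB and TFE3. Upon amino acid withdrawal the factors enter the nucleus, and Flcn, Fnip1, Fnip2 and Rragd are themselves known TFEB-family targets. Transcript levels, the only readout here, do not report location or phosphorylation of the proteins.

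Because the family reads E-boxes, the promoters of the members were searched for CACGTG, a palindrome that reads the same on both strands. RefSeq promoter windows (GRCm38.p6, 250 bases before to 50 after the start) matched all 10 members, with 15 windows in all. The core E-box was found in 3 of the 10 genes (Fnip1, Rragb and Rragc), against 8.09% of all 27025 genes. By windows it was in 3 of the 15, against 7.15% of all 32851 windows. The stretches that hold it upstream of the start are shown 5′ to 3′ on the plus strand, which is the strand of these genes, with the E-box in capitals.
Fnip1, chr11:54438092-54438121, E-box beginning 75 bases before the start: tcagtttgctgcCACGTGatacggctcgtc
Rragc, chr4:123917309-123917338, E-box beginning 112 bases before the start: ggtgattccgggCACGTGatagtaccactt
Rragb, chrX:153139819-153139848, E-box beginning 127 bases before the start: gagagcccgggcCACGTGatggcgggtggc
Rragb, chrX:153139910-153139939, E-box beginning 36 bases before the start: aaagggtagcggCACGTGacaggccctggg
Another E-box of Rragb began 3 bases before the start. None of the member windows held the extended form TCACGTGA (0.974% of all windows), which contains the core E-box. The M-box TCATGTG (3.77% of windows), the FOXO site GTAAACA (3.65%) and the ATF4 site TGATGNAAT (0.965%), each searched on both strands, were likewise in no member window. The windows of Flcn, Fnip2, Rragd, Rraga, Tfeb, Tfe3 and Mitf held none of the 5 motifs, which says only that these letters are not within these windows.

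Total counts ranged from 7717265 to 18510540 per library, and shBruce Starv replicate 1 was the shallowest. That library also stood apart for several members, and the values it moved most are given with and without it. Birc6, the targeted gene, had 3273 to 5061 normalised counts in shRenilla FM and 1207 to 1390.4 in shBruce FM, and 2787 to 4759 and 703 to 1226 in Starv. Its log2 fold change in shBruce against shRenilla MEFs was -1.75 in FM (SE 0.25, adjusted p = 0.0627) and -1.98 in Starv (SE 0.25, adjusted p = 0.0186). Of the fibroblast markers, Vim, Fn1, Col1a1 and Col1a2 reached at least 957.7 CPM (counts scaled to library size) in every library, while Thy1, Fap and Lum did not exceed 0.415. The 8 melanocyte markers, of interest because MITF is the melanocyte factor, summed to at most 2.76 CPM, with Mlana and Slc45a2 at 0 in every library. The macrophage and osteoclast markers summed to 6.32 to 10.6, the epithelial markers to 0.261 to 4.01 and the endothelial markers to 0.475 to 4.39 CPM. Their part in the results was not tested.

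Per length of the gene's exons (RPKM, reads scaled by exon length and library size), the Rag GTPases RagA and RagC led the set and RagD closed it. Averaged over the 12 libraries, Rraga stood at 62.0 ± 9.11 RPKM (SD over 4 conditions, n = 12), Rragc at 53.2 ± 6.92, Flcn at 22.2 ± 7.81, Fnip1 at 22.1 ± 13.9, Fnip2 at 10.2 ± 5.48, Tfe3 at 9.08 ± 0.572 and Rragb at 8.48 ± 2.56. Tfeb at 1.43 ± 0.434, Mitf at 0.904 ± 0.2 and Rragd at 0.630 ± 0.299 RPKM formed the low end. Several neighbours in this order were set against each other within each condition, since the SD over all libraries also holds the change with starvation. Rraga lay above Rragc without overlap in FM in both lines (66.4 ± 3.66 against 52.3 ± 0.995 RPKM in shRenilla, 64.7 ± 3 against 46.2 ± 0.623 in shBruce, SD, n = 3), and the 2 genes overlapped in Starv. Flcn likewise lay above Fnip1 without overlap in FM (16.3 ± 0.0871 against 13.1 ± 2.26 RPKM in shRenilla, 14.3 ± 1.5 against 6.67 ± 1.16 in shBruce) and overlapped with it in Starv. Fnip2 lay below Tfe3 in FM in both lines (4.60 ± 0.731 against 9.87 ± 0.563 RPKM in shBruce), above it in shRenilla Starv (17.5 ± 3.83 against 8.80 ± 0.14) and overlapped with it in shBruce Starv. Tfe3 lay above Rragb without overlap in shBruce FM (9.87 ± 0.563 against 6.97 ± 0.793 RPKM). It lay below Rragb without overlap in shRenilla Starv (8.80 ± 0.14 against 11.6 ± 0.315), and the ranges overlapped in shRenilla FM and shBruce Starv. Tfeb lay above Mitf without overlap except in shRenilla Starv, where they overlapped. Mitf and Rragd overlapped in every condition except shBruce FM. Rragd rested on 11 to 102 reads per library and Mitf on 28 to 123, so these are the least precise members. With the length of the longest transcript in place of all exons, only Tfe3 and Fnip2 exchanged places in this order, and Tfeb moved up to 3.46 RPKM. The fourth relative of the family, Tfec, had 0 counts in every library, which allows up to 3 counts, or 0.162 to 0.389 CPM.

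**Figure D1:**
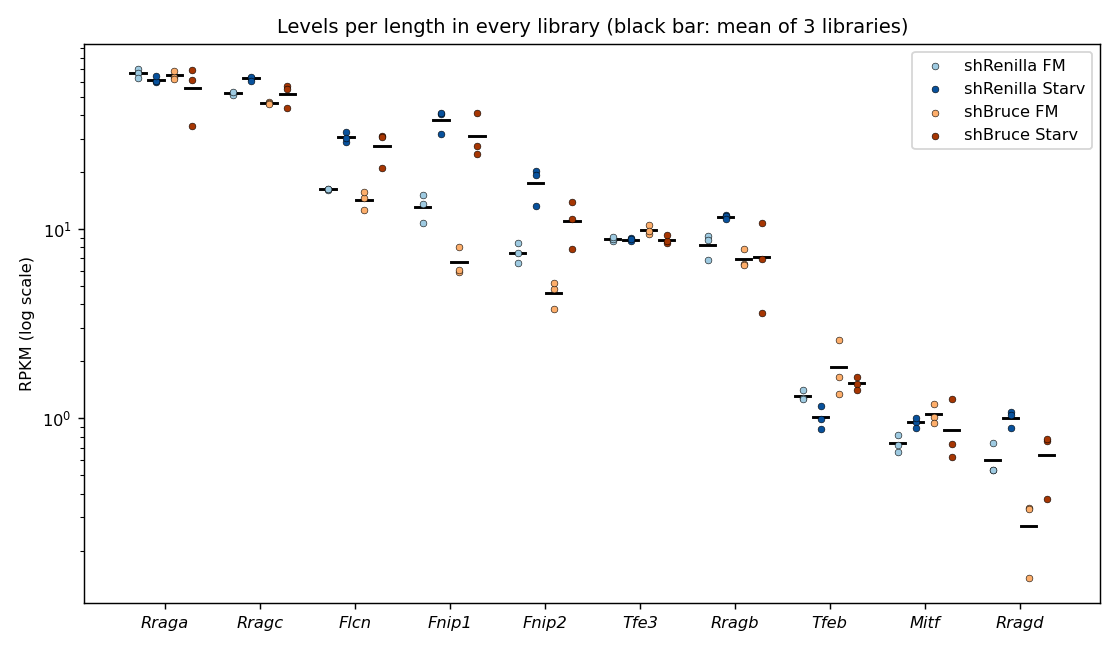
RPKM (log scale) of each member in all 12 libraries, in order of the mean over libraries, with a black bar at the mean of the 3 libraries of each condition. Rraga and Rragc have the highest means in all 4 conditions, though Fnip1 (40.8 RPKM) lies above Rraga (35.1) in shBruce Starv replicate 1. Tfeb, Mitf and Rragd stay under 2.59 RPKM in every library.

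Within each family, 1 paralogue held most of the level per length. Tfe3, the most widely expressed of the factors, made up 81.1% ± 0.765 (SD, n = 3) of the summed RPKM of Tfeb, Tfe3 and Mitf in shRenilla FM and 81.7% ± 0.566 in shRenilla Starv. In shBruce MEFs its share was 77.4% ± 4.63 in FM and 78.7% ± 2.33 in Starv. Rraga was 84.1% to 90.3% of the RagA and RagB sum as a mean of each condition, and Rragc 98.4% to 99.4% of the RagC and RagD sum. The FNIP pair was the most even. Fnip1 was 63.5% ± 3.05 of the pair in shRenilla FM and 68.4% ± 2.11 in Starv, and 59.1% ± 5 in shBruce FM and 73.6% ± 6.2 in Starv. These shares are ratios within a library and do not depend on how libraries were scaled, but they do depend on the lengths used.

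Starvation for 2 h raised the 3 transcripts of the folliculin complex in both lines, while none of the 3 TFEB-family transcripts passed the threshold in either. In shRenilla MEFs 3 of the 10 members were higher (Flcn, Fnip1 and Fnip2) and 0 were lower, where 9.69% of all genes tested were called higher and 7.27% lower. In shBruce MEFs 4 members were higher (the same 3 and Rragd) and 0 were lower, where 12.4% of all genes were called higher and 10.6% lower. For falling members the edgeR, DESeq2 and limma-voom tests each gave 0 in both lines, and the members with an unadjusted p under 0.05 in either direction numbered 5 in shRenilla MEFs, where 31.6% of all genes had one, and 4 in shBruce MEFs, where 36.3% did. The median log2 fold change of the members was 0.43 in shRenilla and 0.11 in shBruce MEFs, against -0.01 and 0.02 for all genes tested. In bulk RNA, fewer cells with a transcript and less of it per cell cannot be told apart.

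**Figure D2:**
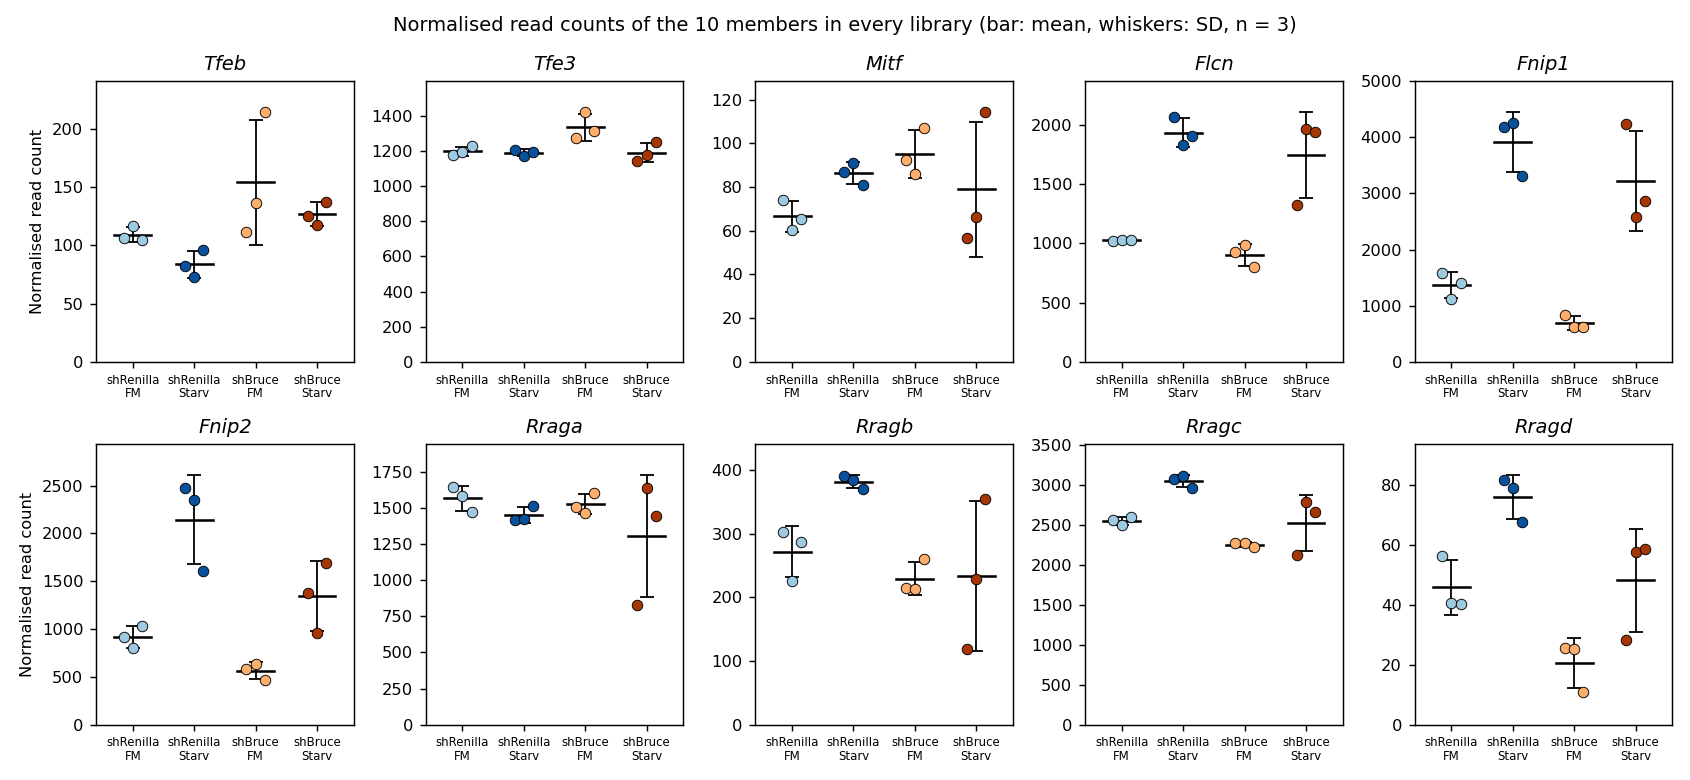
Normalised read counts of each member in every library, with the mean and SD of the 3 libraries of each condition (each axis starts at 0). Flcn, Fnip1, Fnip2 and Rragd show starved libraries above the FM libraries of their own line, while those of Rraga overlap in both lines. Tfe3 overlaps in shRenilla MEFs, and in shBruce MEFs its starved libraries lie slightly below the FM libraries.

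Flcn (ENSMUSG00000032633, GRCm38 chr11:59791408-59810016, minus strand) encodes folliculin. Its normalised read counts in shRenilla MEFs were 1019, 1029.8 and 1028 in FM and 2062, 1829 and 1906 in Starv. In shBruce MEFs they were 922, 986 and 799 in FM and 1322, 1964 and 1936 in Starv. Every starved library lay above every FM library of either line, with the lowest starved value in the shallow shBruce Starv replicate 1. Starvation raised Flcn 1.88-fold in shRenilla MEFs (log2 fold change 0.91, SE 0.15, adjusted p = 0.000981) and 1.93-fold in shBruce MEFs (0.95, SE 0.15, adjusted p = 0.000692). Without shBruce Starv replicate 1 the log2 fold change in shBruce MEFs was 1.1.

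Fnip1 (ENSMUSG00000035992, chr11:54438199-54518235, plus strand), a folliculin partner, had the largest fold changes among the members. The shRenilla libraries held 1578, 1113 and 1407 normalised counts in FM and 4189.6, 4252 and 3305 in Starv. The shBruce libraries held 832, 619.7 and 628 in FM and 4237, 2575 and 2864 in Starv. The shBruce line thus began lower in FM and reached a range in Starv that overlapped that of shRenilla. Fnip1 rose 2.87-fold in shRenilla MEFs (log2 fold change 1.52, SE 0.20, adjusted p = 0.000270) and 4.65-fold in shBruce MEFs (2.22, SE 0.21, adjusted p = 1.5e-05). The highest starved shBruce value was that of the shallow replicate 1, and without it the rise in shBruce MEFs was 1.96 on the log2 scale.

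Fnip2 (ENSMUSG00000061175, chr3:79455974-79567796, minus strand), the second partner, had 913, 803 and 1034 normalised counts in shRenilla FM and 2475, 2345 and 1609 in shRenilla Starv. In shBruce MEFs the values were 586, 635 and 462 in FM and 1381, 956 and 1689 in Starv. Starved and FM libraries did not overlap within either line. The rise was 2.34-fold in shRenilla MEFs (log2 fold change 1.22, SE 0.22, adjusted p = 0.00185) and 2.39-fold in shBruce MEFs (1.26, SE 0.22, adjusted p = 0.00137). Flcn, Fnip1 and Fnip2 kept these calls in both lines under all 22 alternative fits, 12 of which left out a library.

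**Figure D3:**
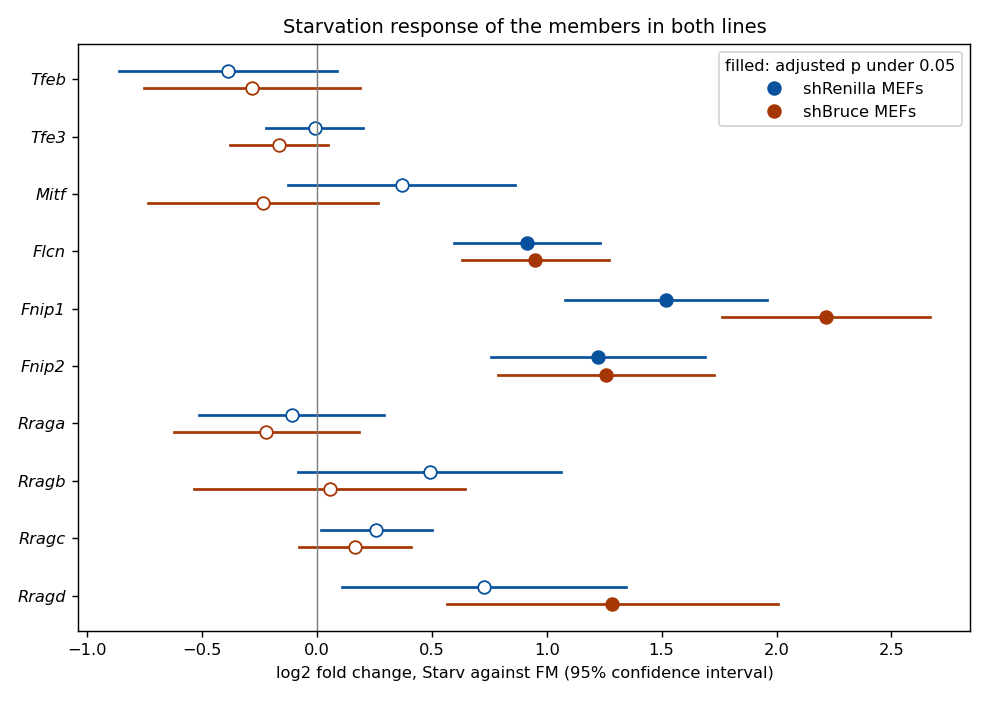
Log2 fold change of each member in Starv against FM, with its 95% confidence interval, in shRenilla (blue) and shBruce MEFs (brown), filled where the adjusted p is under 0.05. Flcn, Fnip1 and Fnip2 are filled in both lines, at 0.91 to 2.22, and Rragd in shBruce MEFs alone, at 1.29, without a significant difference between the lines.

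Among the Rag GTPases, Rragd was called in shBruce MEFs, and Rraga, Rragb and Rragc in neither line. Rragd (chr4:32983037-33022180, plus strand), the scarce RagC paralogue, had 56.3, 40.6 and 40.3 normalised counts in shRenilla FM and 81.4, 78.7 and 67.6 in Starv. In shBruce MEFs it had 25.5, 25.1 and 10.9 in FM and 28.3, 57.6 and 58.5 in Starv. Starved libraries were above FM libraries within each line, narrowly so for shBruce Starv replicate 1, which rested on 14 reads. Rragd rose in shBruce MEFs (log2 fold change 1.29, SE 0.33, adjusted p = 0.0143), a call lost in the fit of only the groups compared (adjusted p = 0.0933) and kept without replicate 1 (1.49, adjusted p = 0.00362). In shRenilla MEFs its log2 fold change was 0.73 (SE 0.29, adjusted p = 0.0998).

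Rragc (chr4:123917446-123936997, plus strand) had 2558, 2498 and 2594 normalised counts in shRenilla FM and 3068, 3114 and 2966 in Starv. In shBruce MEFs it had 2273, 2269 and 2219 in FM and 2126, 2789 and 2662 in Starv. The shRenilla groups did not overlap, and in shBruce MEFs replicate 1 fell below the FM libraries while the other two starved libraries lay above. The log2 fold change was 0.26 in shRenilla (SE 0.11, adjusted p = 0.133) and 0.17 in shBruce MEFs (SE 0.11, adjusted p = 0.307), and without shBruce Starv replicate 1 both passed the threshold, at 0.27 (adjusted p = 0.0206) and 0.26 (adjusted p = 0.0411). An exon of Rragc overlaps 4930535I16Rik on the opposite strand, and 6.75% of its 50-base stretches occur elsewhere among transcripts, so a small part of its reads is uncertain.

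Rragb (chrX:153139981-153171943, plus strand) had 303, 226 and 287 normalised counts in shRenilla FM and 392, 384 and 371 in Starv, without overlap. In shBruce MEFs it had 216, 214 and 259.8 in FM and 119, 228 and 355 in Starv, which spanned the FM range. Its log2 fold change was 0.49 in shRenilla (SE 0.27, adjusted p = 0.228) and 0.06 in shBruce MEFs (SE 0.27, adjusted p = 0.905), the latter 0.33 without replicate 1. Rraga (chr4:86575668-86577285, plus strand), the abundant form, had 1645, 1584 and 1475 in shRenilla FM and 1418, 1425 and 1516 in Starv. In shBruce MEFs it had 1507, 1469.8 and 1607 in FM and 829.6, 1641 and 1449 in Starv, where replicate 1 again stood alone. Its log2 fold change was -0.11 in shRenilla (SE 0.19, 95% confidence interval -0.51 to 0.29) and -0.22 in shBruce MEFs (SE 0.19, -0.62 to 0.18), the latter 0.00 without replicate 1.

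The TFEB-family transcripts did not pass the threshold in either line. Tfeb (chr17:47737030-47792419, plus strand) had 106, 117 and 105 normalised counts in shRenilla FM and 82.2, 72.7 and 96.1 in Starv, so that every starved library was below every FM library. In shBruce MEFs it had 111, 136 and 214 in FM and 125, 117 and 137 in Starv, with overlap and with FM replicate 3 standing high. The log2 fold change was -0.39 in shRenilla (SE 0.22, adjusted p = 0.254) and -0.28 in shBruce MEFs (SE 0.22, adjusted p = 0.374). The shBruce value rested on FM replicate 3 and was 0.03 without it.

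Tfe3 (chrX:7762560-7775202, plus strand), the most abundant of the family, varied little. It had 1175, 1193 and 1225 normalised counts in shRenilla FM and 1207, 1169 and 1193 in Starv, and 1272, 1419.5 and 1313 in shBruce FM and 1142, 1175 and 1250.2 in Starv. Its log2 fold change was -0.01 in shRenilla (95% confidence interval -0.22 to 0.20) and -0.17 in shBruce MEFs (-0.38 to 0.05). Mitf (chr6:97807052-98021349, plus strand) had 74.3, 60.4 and 65.4 in shRenilla FM and 87.0, 90.9 and 80.9 in Starv, and 92.4, 85.8 and 107 in shBruce FM and 56.5, 66.2 and 114 in Starv. Its log2 fold change was 0.37 in shRenilla (SE 0.23, adjusted p = 0.294) and -0.23 in shBruce MEFs (SE 0.23, adjusted p = 0.492), and without shBruce Starv replicate 3 the latter became -0.62 (adjusted p = 0.0253). Opposite signs in the lines were not a significant difference, as given for the interaction.

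Starved libraries all lay above the FM libraries for 7 of the 10 members in shRenilla MEFs, where 25.9% of all genes did so, and for 4 in shBruce MEFs, where 16.2% did. They all lay below for 1 member in shRenilla MEFs (Tfeb, with 26.5% of all genes) and for 1 in shBruce MEFs (Tfe3, with 14.8%). A two-sided exact permutation test with 3 libraries against 3 cannot go below p = 0.1, the value all these members had. Which of the smaller changes were called depended on the samples sharing the estimate of spread. In a fit of the 6 shRenilla libraries alone, 7 members were higher (the 3 of the folliculin complex, Rragb, Rragc, Rragd and Mitf) and Tfeb was lower, but so were 22.4% of all genes called higher and 19.5% lower. With all libraries except shBruce Starv replicate 1, 6 members were higher in shRenilla MEFs, the added ones being Rragb, Rragc and Rragd, with 14.5% of all genes called higher.

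Between the lines in FM, no member passed the adjusted threshold, and the lowest values were those of Fnip1, Fnip2 and Rragd. The edgeR test called 0 members and 0 genes of 12154 (0.0%) in this comparison, with an unadjusted p under 0.05 for 5 members and 14.4% of all genes. DESeq2 called 1 member, Fnip1, with 26 of 12154 genes called higher and 50 lower. limma-voom called 0 members, with 0 genes higher and 0 lower. The log2 fold change in shBruce against shRenilla MEFs was -0.98 for Fnip1 (SE 0.20, adjusted p = 0.246), -0.71 for Fnip2 (SE 0.22, adjusted p = 0.288) and -1.16 for Rragd (SE 0.33, adjusted p = 0.259). All shBruce libraries lay below all shRenilla libraries for 5 members (these 3, Flcn and Rragc), where 17.0% of all genes did so, and above them for Mitf and Tfe3, where 16.4% did. Tfeb had 0.50 (SE 0.22, adjusted p = 0.326), which was 0.18 without shBruce FM replicate 3, and Mitf 0.51 (SE 0.23, adjusted p = 0.336). In a fit of the 6 FM libraries alone, Fnip1 (adjusted p = 0.0299) and Fnip2 (adjusted p = 0.0478) were lower in shBruce MEFs, with 3.22% of all genes called lower.

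Between the lines in Starv, Fnip2 was the only member called, lower in shBruce MEFs. Its log2 fold change was -0.68 (SE 0.21, adjusted p = 0.0392), the fold being 0.626, with 1381, 956 and 1689 normalised counts against 2475, 2345 and 1609, which overlap (exact permutation p = 0.2). In this comparison 11.2% of all genes were called lower and 12.8% higher. The call was lost in 11 of 22 alternative fits, among them the fit of only the groups compared (adjusted p = 0.124) and the fit without shBruce Starv replicate 1 (adjusted p = 0.0804). Over all genes the former called 0 higher and 0 lower of 11969, and the latter 226 higher and 347 lower of 12254. Fnip1, whose shBruce values lay lower in FM, had -0.28 (SE 0.20, adjusted p = 0.301) and, without shBruce Starv replicate 1, -0.54 (adjusted p = 0.0706). Flcn had -0.15 (SE 0.15, adjusted p = 0.462), which was 0.00 to 2 decimals without that replicate. For higher members edgeR and limma-voom gave 0. DESeq2 gave 1, which was Tfeb, with 2004 of 12154 genes called higher. An unadjusted p under 0.05 in either direction was found for 4 members and for 41.2% of all genes.

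All shBruce Starv libraries lay above all shRenilla Starv libraries for Tfeb (16.4% of all genes) and below them for Rragb, Rragc and Rragd (18.5%). The log2 fold change was 0.60 for Tfeb (SE 0.22, adjusted p = 0.0636), -0.68 for Rragb (SE 0.27, adjusted p = 0.0784), -0.27 for Rragc (SE 0.11, adjusted p = 0.0885) and -0.61 for Rragd (SE 0.29, adjusted p = 0.135). None of these passed. DESeq2 called Tfeb higher and Rragb and Rragc lower beside Fnip2, but over all 12154 genes it called 2004 higher and 1777 lower. Of the 12 edgeR fits with a library left out, 1 called Tfeb higher. This was the fit without shBruce FM replicate 3 (0.60, adjusted p = 0.0304), where 1544 of 12311 genes were called higher. Without shBruce Starv replicate 3 edgeR also called Rragb (-1.10, adjusted p = 0.00196) and Rragc (adjusted p = 0.0462), with 24.5% of all genes called lower. Without shBruce Starv replicate 1 the values were smaller, at -0.40 for Rragb (adjusted p = 0.157), -0.18 for Rragc (adjusted p = 0.164) and -0.40 for Rragd (adjusted p = 0.300).

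Differences between the lines followed transcript length over all genes, with a Spearman correlation of log2 fold change and length of -0.47 in FM and -0.55 in Starv over 12058 genes (a description, since genes are not independent replicates). In FM the values were negative for Fnip2 (longest transcript 7299 bases), Fnip1 (6255), Rragd (5055) and Flcn (3567). They were also negative for Rragc (2950), Rragb (2258) and Rraga (1618), and positive for Tfe3 (6328), Mitf (4881) and Tfeb (2342). The part of length in these differences was not tested. With each library's trends against length and GC content removed, Fnip1 in FM came to -0.61, Fnip2 to -0.47 and Rragd to -0.96, while Tfe3 went from 0.16 to 0.29 and Mitf from 0.51 to 0.76, and none was called. In Starv, Fnip2 came to -0.32 and was no longer called (adjusted p = 0.135), Tfeb came to 0.19, and Fnip1 changed sign to 0.27 (adjusted p = 0.349). The starvation responses moved less, Fnip1 to 1.30 in shRenilla and 2.18 in shBruce MEFs and Fnip2 to 1.07 and 1.23, all still called.

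**Figure D4:**
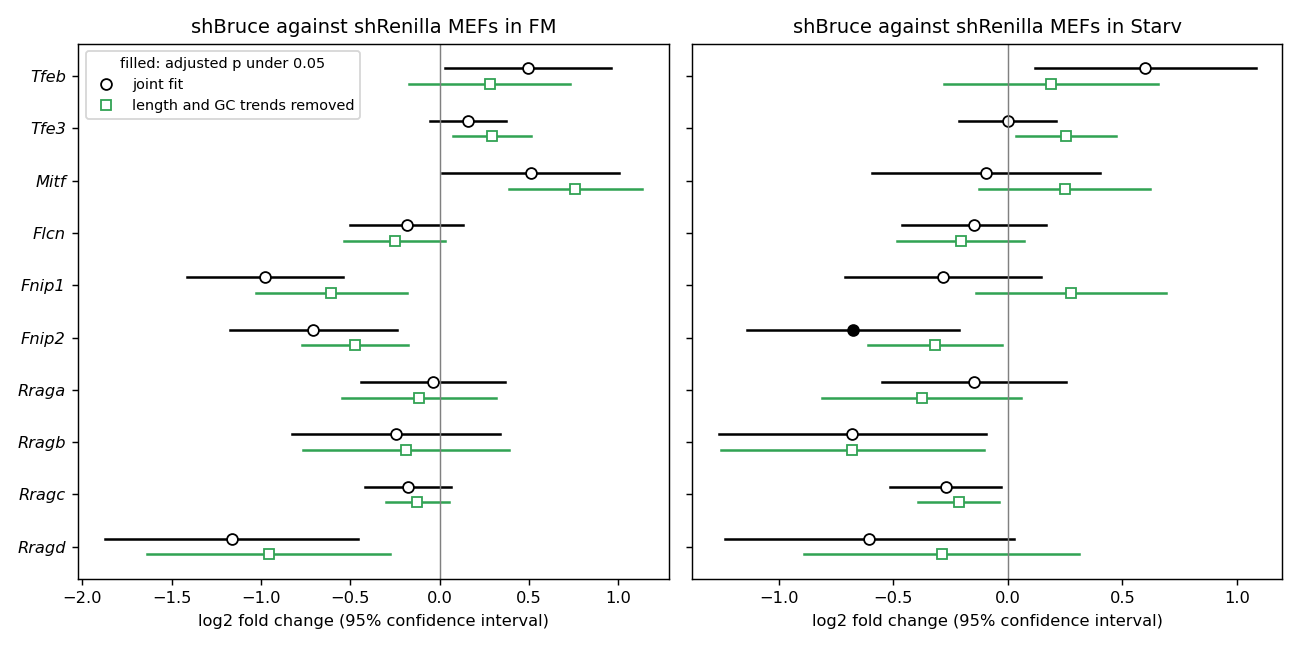
Log2 fold change of each member in shBruce against shRenilla MEFs with its 95% confidence interval, in FM (left) and in Starv (right), in the joint fit (black circles) and with length and GC trends removed (green squares), filled where the adjusted p is under 0.05. Fnip2 in Starv is the only filled point, at -0.68, and lies at -0.32 unfilled with the trends removed.

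Whether starvation acted differently in the 2 lines was tested as the interaction of line and medium. It was significant for 0 of the 10 members and 0 of 12154 genes (0.0%) with edgeR, and for 0 members with DESeq2 and with limma-voom, and 3.9% of all genes had an unadjusted p under 0.05. The 1 member among them was Fnip1, whose log2 fold change was larger in shBruce MEFs by 0.70 (SE 0.28, 95% confidence interval 0.09 to 1.31, adjusted p = 0.806 with edgeR). This value was 0.43 without shBruce Starv replicate 1 and 0.88 with the length and GC trends removed. Mitf differed by -0.60 (confidence interval -1.31 to 0.10) and Rragd by 0.56 (-0.39 to 1.51), while Flcn differed by 0.04 (-0.41 to 0.48) and Fnip2 by 0.03 (-0.62 to 0.69). The call of Rragd in shBruce MEFs alone is thus not shown to differ between the lines.

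The other genes of the pathway were read from lists chosen for their roles. Of 28 tested TFEB-family targets with lysosomal or autophagy functions (the CLEAR network), 7 rose in shRenilla MEFs (25.0%, against 9.69% of all genes) and 16 in shBruce MEFs (57.1%, against 12.4%), and 0 fell in either, with DESeq2 and limma-voom also at 0 falls and medians of 0.25 and 0.40 on the log2 scale. With an unadjusted p under 0.05 there were 13 and 18, against 31.6% and 36.3% of all genes. Sqstm1, which encodes the autophagy receptor p62, rose by 0.95 (SE 0.13, adjusted p = 0.000332) and 1.04 (SE 0.13, adjusted p = 0.000132), and Map1lc3b, which encodes LC3B, by 0.71 and 1.25. Ctsf, a lysosomal protease, rose by 0.74 and 0.87, and Gpnmb, a lysosomal membrane glycoprotein, rose by 1.02 in shBruce MEFs and had 0.63 in shRenilla MEFs (adjusted p = 0.140). In fits of only the groups compared, the CLEAR genes that rose numbered 16 in shRenilla MEFs, where 22.4% of all genes were called higher, and 4 in shBruce MEFs, where 4.68% were, so the order of the 2 counts changed with the share called among all genes.

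Among all genes tested, 9.69% were called higher after starvation in shRenilla and 12.4% in shBruce MEFs, and 7.27% and 10.6% lower. Beside these shares, the calls in each list below are too few to read as a change of the list. Of 6 tested genes of Ragulator and related lysosomal anchors of the Rag GTPases, 1 rose in both lines. This was Slc38a9, the lysosomal arginine sensor, by 0.92 (SE 0.13, adjusted p = 0.000480) in shRenilla and 0.87 (SE 0.14, adjusted p = 0.000718) in shBruce MEFs. Of 6 amino acid sensors, Sesn2, the leucine sensor sestrin 2, rose by 2.93 (SE 0.37, adjusted p = 0.000186) and 2.38 (SE 0.37, adjusted p = 0.000659), with Lars also called in shRenilla (0.50, and 0.28 in shBruce MEFs) and Gatsl2 in shBruce MEFs (0.75, and 0.67 in shRenilla). The shBruce Starv libraries spread widely for Sesn2 (mean 966 normalised counts, SD 669). Its rise in shBruce MEFs ranged from 1.67 to 2.71 over the 22 alternative fits, all of which kept the call. Of 12 genes of GATOR1, GATOR2 and KICSTOR, which set the state of RagA and RagB, Nprl3 rose in shRenilla (0.47, adjusted p = 0.0381, and 0.18 in shBruce MEFs) and Itfg2 in shBruce MEFs (0.75, adjusted p = 0.00237, and 0.31 in shRenilla). Of 23 kinases, phosphatases and anchors of the TFEB family, Akt1 and the 14-3-3 genes Ywhag and Ywhah fell in both lines, by 0.48, 0.50 and 0.42 in shRenilla and by 0.71, 0.52 and 0.61 in shBruce MEFs on the log2 scale. Mcoln1, the lysosomal calcium channel of the same list, rose by 0.41 in shBruce MEFs (adjusted p = 0.0375) and had 0.38 in shRenilla MEFs (adjusted p = 0.0656). Of 7 AMPK subunits, edgeR, DESeq2 and limma-voom called 0 in either line, and 0 had an unadjusted p under 0.05. Of 22 alternative fits, the call was kept in 9 for Mcoln1, in 13 for Nprl3, Gatsl2 and, in shRenilla MEFs, Ctsf, and in 18 for Lars. With length and GC trends removed, the genes that fell in shBruce MEFs numbered 9 of the 23, 4 of the 12 GATOR and KICSTOR genes and 2 of the 7 AMPK subunits, where 18.8% of all genes were called lower. A call in 1 line alone does not show a difference between the lines, since no listed gene passed the interaction test.

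Between the lines in Starv, where 12.8% of all genes were called higher and 11.2% lower in shBruce MEFs, 4 of the lists are given, with genes named after their values were seen, and the others are not reported here. Of the 6 Ragulator and anchor genes 4 were higher (Lamtor1, Lamtor2, Lamtor4 and Lamtor5), which was 1 with length and GC trends removed (5.29% of all genes) and 0 without shBruce Starv replicate 1 (1.84% of all genes), where 4 had an unadjusted p under 0.05. Of the 7 AMPK subunits Prkag1 was higher and Prkaa1 and Prkaa2 were lower, and of the 6 amino acid sensors Sesn3 was lower. With length and GC trends removed, 0 genes of these 2 lists were called, where 643 of 12154 genes were called higher and 358 lower. Without shBruce Starv replicate 1, 1 AMPK subunit was lower and 0 sensors were called, where 226 of 12254 genes were called higher and 347 lower. There 3 AMPK subunits and 1 sensor had an unadjusted p under 0.05. Of the 12 GATOR and KICSTOR genes edgeR called 0 and DESeq2 called 1 on each side. Over all 12154 genes DESeq2 called 2004 higher and 1777 lower. An unadjusted p under 0.05 was found for 5 of the 12 and for 41.2% of all genes. In the fit of only the groups compared, edgeR called 0 genes of these 4 lists, but also 0 higher and 0 lower of all 11969 genes tested.

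Genes whose log2 CPM followed a member most closely over the 12 libraries, among 10364 with a mean normalised count of at least 50, were found by Pearson's r, as a description. The points share the starvation contrast and the 12 library depths. Flcn was followed by Vash2 (0.99), Tbccd1 (0.98) and Atg12 (0.97), and Fnip1 by Etaa1 (0.98), Sgol1 (0.98) and Herpud2 (0.97). Fnip2 was followed by Rnf169 (0.99), Cep162 (0.98) and Kansl1 (0.98). Rragd was followed by Lamp1 (0.96), Gpnmb (0.95) and Xdh (0.95), of which Lamp1 and Gpnmb encode lysosomal membrane proteins. Between members, r was 0.93 for Fnip1 with Fnip2, 0.87 for Flcn with Fnip1, 0.86 for Flcn with Fnip2 and 0.89 for Rragc with Rragd, while Tfeb had -0.84 with Rragd and Tfe3 had -0.76 with Fnip1.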

How the data were processed

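RNA-seq counts of 12 libraries were analysed, 3 for each of the 4 conditions, grouped by their labels. The authors extracted RNA with TRIzol, digested DNA, enriched poly(A) RNA and sequenced single-end 50-base reads. They removed rRNA reads, mapped the rest to mm10 with STAR 2.4.0d and counted reads per gene with HTSeq 0.5.4p3. The annotation, strand setting and overlap mode are not given in the sources used here, so reads from overlapping genes on opposite strands may not be separated. The deposited table holds raw counts per gene symbol, with 0 unused columns and 27 symbols that read as dates (0.296% of all counts).

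The fit used edgeR 4.0.16 (R 4.3.3) after TMM scaling and filterByExpr, with 1 mean per condition over all 12 libraries. Tests were two-sided by quasi-likelihood, and p-values were adjusted by Benjamini-Hochberg over 12154 genes at a level of 0.05. Normalised read counts are counts divided by the relative effective library size, and RPKM uses the exon union of GENCODE M21 on GRCm38, the build of mm10. For single members the exact permutation test of scipy 1.17.1 was added. On simulated counts of 12048 genes for starvation in shRenilla MEFs, the edgeR fit recovered 79 of 107 genes changed by 1 on the log2 scale and 88 of 91 changed by 2, with 8 false calls.

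The alternatives were DESeq2's size factors, upper-quartile scaling, DESeq2's Wald test (1.42.0), limma-voom (3.58.1), no filter, a minimum of 10 counts in every library, a fit of only the groups compared, a replicate block, length and GC trends removed (spline with 4 degrees of freedom, 12058 of the 12154 genes), and each of the 12 libraries left out. The longest transcript in place of the exon union was added after seeing the data. The members and gene lists were chosen with earlier results of these data known. Named are all members, Birc6, up to 3 rising and 3 falling genes per pathway list in each starvation comparison, and the 3 genes closest in pattern to each member that rose. All intervals cover the spread between libraries at a level of 95%, and the limit of 3 counts for a count of 0 covers counting error only. No protein sequences were used here.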

Additional observations from a re-analysis of the deposited data

How the results depend on the processing

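Each comparison was refitted under 22 alternatives (21 for the interaction). The members called in Starv against FM numbered 3 in shRenilla MEFs and 8 with only the groups compared, and 3 to 6 with a library left out, the 6 being without shBruce Starv replicate 1. In shBruce MEFs they numbered 4, and 4 to 5 with a library left out. Between the lines in FM, DESeq2's Wald test called 1 member, with 26 of all genes called higher and 50 lower. The fit of only the groups compared called 2, with 221 and 376, against 0 in the joint fit. The count was 0 for every library left out. Between the lines in Starv, DESeq2's Wald test called 4 members against 1, with 2004 of 12154 genes called higher and 1777 lower. With only the groups compared 0 members were called (0 genes higher and 0 lower). The same held for the replicate block with length and GC trends removed (0 and 1 genes). It also held for the trends removed alone (643 and 358) and the replicate block alone (892 and 1040). Leaving out a library gave 0 to 3 there. The 7 libraries whose removal gave 0 were shRenilla FM replicates 1 and 3, shRenilla Starv replicates 1 and 2, shBruce FM replicate 1 and shBruce Starv replicates 1 and 2, and 3 were called without shBruce Starv replicate 3. Over all genes, 0 were called higher and 0 lower without shRenilla Starv replicate 1 or 2, and 5 and 10 without shBruce Starv replicate 2. The numbers were 226 and 347 without shBruce Starv replicate 1, and 2727 and 3008 without its replicate 3. They were 1046 and 926 without shRenilla FM replicate 1 and 1072 and 949 without its replicate 3. Without shBruce FM replicate 1 they were 1178 and 1014. The cause was not tested. The interaction had 0 calls under every alternative run.

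Replicate numbers showed no clear pairing over the comparisons: of 12 same-numbered pairs, 3 correlated above 0.1 (range -0.46 to 0.16). These correlations use deviations from means of 3 libraries and cannot exclude pairing. Under the replicate block Fnip2 in Starv had an adjusted p of 0.0599, and the block changed no other member's call. Over all members and comparisons, 12 alternative values lost a call and 19 gained one, and no called value changed sign. Depth limits Rragd most, at 11 to 102 reads per library.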
